A study of Mus musculus with 19 samples.

Results

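The loop of Henle, the distal convoluted tubule and the collecting duct set the final salt, water, calcium, potassium and acid content of the urine. The 42 genes listed for these stretches of the tubule were followed in the obstructed kidneys of WT and CD5L KO mice. They are the rows of a count table of 54532 genes whose symbol is on a list of transporters, channels, receptors, kinases, proton pump subunits and transcription factors, and the rule itself uses no measured value. Of the 42, 9 were placed with the thick ascending limb and 13 with the distal convoluted and connecting tubule. A further 12 were placed with principal cells of the collecting duct and 8 with intercalated cells. Their RNA can also come from other cells of the kidney, and its source was not tested. The thick ascending limb takes up sodium, potassium and chloride through Slc12a1 and dilutes the urine. The distal convoluted tubule takes up sodium and chloride through Slc12a3 under the control of WNK kinases, and principal cells take up sodium through ENaC and water through Aqp2 under the control of aldosterone and vasopressin. Intercalated cells secrete acid or base with a proton pump, the V-ATPase, and chloride-bicarbonate exchangers.

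Kidneys of 19 male mice on a C57BL/6J background, 8 to 9 weeks old, were measured by bulk RNA-seq on day 12 after unilateral ureteral obstruction (UUO), in which the left ureter is tied and cut so that urine backs up into that kidney. The WT mice were given PBS (n = 5) or rCD5L, the recombinant form of the circulating protein CD5L, at 0.5 mg per mouse and day into the peritoneum (n = 5), and mice that lack CD5L were given PBS (n = 4) or the same dose of rCD5L (n = 5). Each kidney came from its own mouse. Every kidney was obstructed and perfused with heparin, and kidneys without obstruction are not analysed here, so the values describe differences between obstructed kidneys and not the effect of obstruction. The right ureter of these mice was not tied. The mice were given their treatment in alternating order and not by formal randomisation. In whole kidney RNA, fewer cells of a segment and less RNA per cell cannot be told apart.

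Stretches before the transcription start of 3 intercalated cell genes are shown, because Atp6v1g3 was the 1 gene of the 42 called in any comparison, Slc26a4 defines the base-secreting intercalated cell, and Foxi1 is the forkhead transcription factor required for these cells. Each stretch is the 250 bases before a RefSeq start in GRCm38.p6, written 5′ to 3′ on the strand of the gene, and the capitals mark the match to the forkhead motif TGTTTNC on either strand. The 3 stretches lie at chr1:138273488-138273737 on the plus strand for Atp6v1g3, at chr12:31559985-31560234 on the minus strand for Slc26a4 and at chr11:34208090-34208339 on the minus strand for Foxi1.
Atp6v1g3: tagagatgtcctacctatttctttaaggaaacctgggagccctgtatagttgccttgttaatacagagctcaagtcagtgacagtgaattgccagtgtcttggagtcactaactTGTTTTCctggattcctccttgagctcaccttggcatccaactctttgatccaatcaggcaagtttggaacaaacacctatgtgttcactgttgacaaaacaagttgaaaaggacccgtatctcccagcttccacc
Slc26a4: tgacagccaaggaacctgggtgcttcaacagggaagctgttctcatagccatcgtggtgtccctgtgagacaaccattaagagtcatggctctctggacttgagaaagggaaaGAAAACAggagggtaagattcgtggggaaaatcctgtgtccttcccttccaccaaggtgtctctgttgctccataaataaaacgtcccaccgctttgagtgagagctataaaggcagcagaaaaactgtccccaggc
Foxi1: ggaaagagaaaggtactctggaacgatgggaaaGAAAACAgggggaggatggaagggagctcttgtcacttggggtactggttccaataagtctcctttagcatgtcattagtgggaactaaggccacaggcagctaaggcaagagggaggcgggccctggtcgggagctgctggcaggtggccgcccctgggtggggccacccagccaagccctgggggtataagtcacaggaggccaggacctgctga
The match began 136 bases before the start of Atp6v1g3, 137 bases before that of Slc26a4 and 217 bases before that of Foxi1. RefSeq held such stretches for 33 of the 42 genes (39 stretches), and 9 genes, Slc4a1, Bsnd, Aqp4, Scnn1a, Fxyd2, Hsd11b2, Slc4a9, Atp6v0d2 and Calb1, had none in the table used. The forkhead motif was found in 15 of the 39 stretches (38.5%), against 17.8% of 32851 stretches of all genes. These 15 stretches belong to 12 of the 33 genes, because Kcnj16 and Egf have several stretches with the motif. Of the 5 intercalated cell genes with a stretch, Atp6v1b1, Atp6v1g3, Foxi1 and Slc26a4 held it and Atp6v0a4 did not. The GATA motif AGATAA was found in 15.4% of the stretches of the 33 genes and in 9.99% of all, the HNF1 motif GTTAAT in 10.3% and 6.43%, and the motif AAGGTCA of estrogen-related receptors in 2.56% and 4.08%. A match describes letters in these stretches and is not a bound site.

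Between 17917491 and 23847090 counts were assigned to genes in each kidney. Cd5l had 0 counts in all 9 CD5L KO kidneys, which allows up to 3 counts each, and 3 to 15 counts in the WT kidneys. Levels are given as CPM, the count relative to the total count of the kidney after TMM scaling over all 19 kidneys, and levels of different genes are compared only in FPKM, which is also divided by gene length. A gene is called where the adjusted p-value of edgeR over all genes tested is under 0.05.

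Kidney 4 of the rCD5L-treated CD5L KO mice stood apart from the other 18. Over 41 of the 42 genes (all but Pvalb), its median distance from the other kidneys of its group was 0.748 on the log2 scale, and 15 genes differed by more than 1, against a median distance of 0.0603 to 0.356 and at most 3 such genes in any other kidney. The summed level of 10 proximal tubule markers was 52830 CPM in this kidney and 3163 to 9638 CPM in the others. Its summed levels of 6 fibroblast markers (1099 CPM), 6 macrophage markers (669.9 CPM), 6 markers of injured tubule (10070 CPM) and 6 T cell markers (14.6 CPM) were the lowest of all 19. Kidney 3 of the same group held RNA of skeletal muscle markers, with 52.3 CPM summed over 5 genes against at most 3.29 CPM in any other kidney. In WT mice given PBS, kidney 3 was above the group mean for 39 of 41 genes, whereas kidneys 1 and 2 were above it for 3 and 2 of 41. Its urothelial markers summed to 25.1 CPM, the lowest of all kidneys, and its proximal tubule markers to 7999 CPM, the highest of its group. Results that rest on these kidneys are given with and without them.

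**Figure D1:**
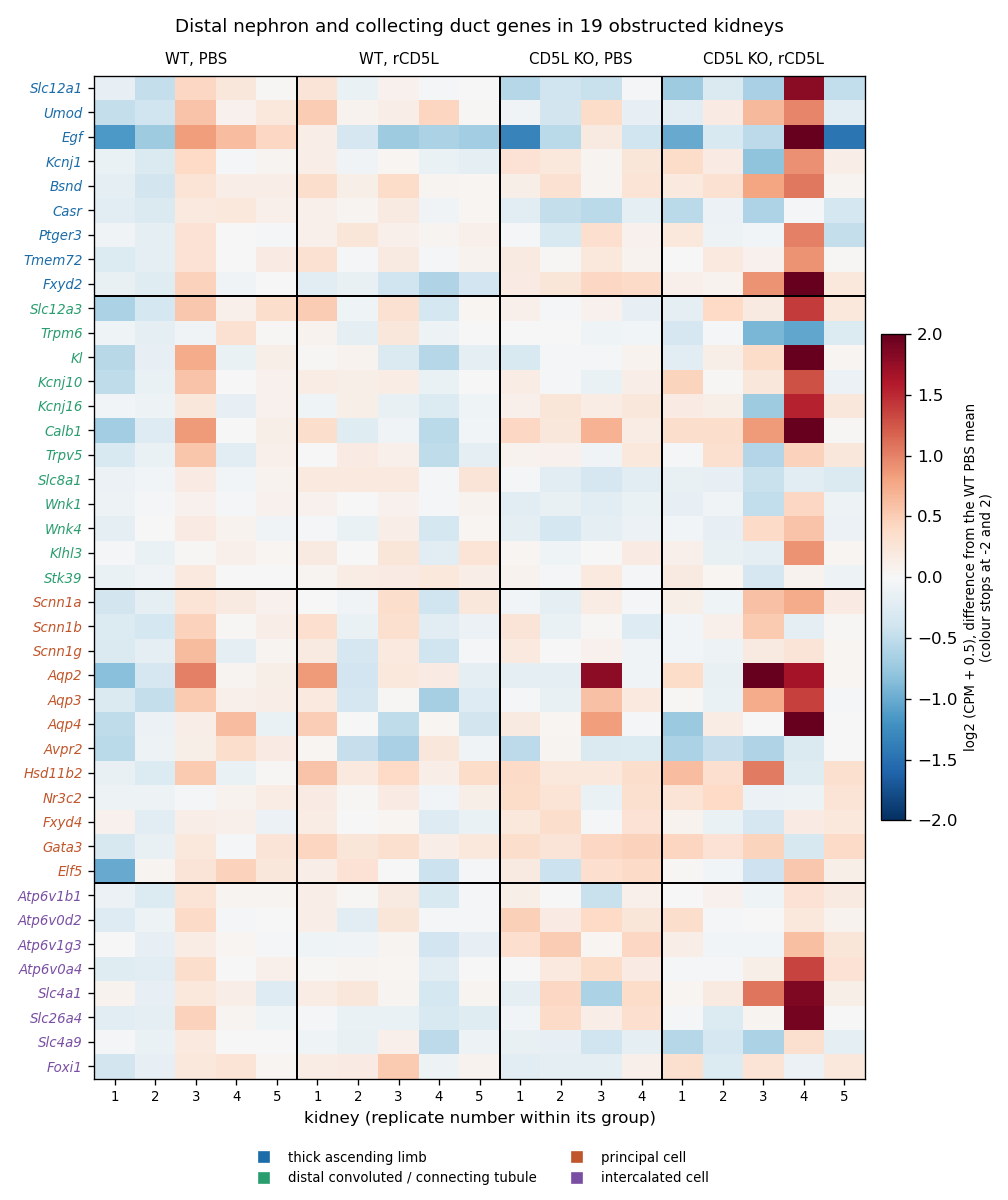
Level of 41 genes (rows, by segment) in each of the 19 kidneys (columns, by group), as the difference of log2(CPM + 0.5) from the mean of WT mice given PBS, with colours that stop at -2 and 2. Kidney 4 of the rCD5L-treated CD5L KO mice is a column of mostly high values, and Pvalb is left out because 12 kidneys had 0 counts.

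The 42 genes spanned a wide range of levels. By median FPKM over the 19 kidneys, Umod, the urinary protein uromodulin, was first at 603 and Fxyd2, the gamma subunit of the Na,K-ATPase, was second at 145. Hsd11b2, which shields the mineralocorticoid receptor from glucocorticoid, followed at 79.1, Kcnj16, a potassium channel subunit of the basolateral membrane, at 64.2, Slc12a1 at 36.9 and Aqp2 at 36.5. At the low end stood Slc4a1 at 1.07, Aqp4 at 0.781, Elf5 at 0.243, Avpr2 at 0.0876 and Pvalb at 0. Between the highest and the lowest kidney, FPKM differed by 1.51 times for Nr3c2, the mineralocorticoid receptor, and by 37.9 times for Egf. Without kidney 4 of the rCD5L-treated CD5L KO mice, the same ratio ran from 1.44 for Klhl3 to 7.67 for Aqp2, and for Egf it was 5.09.

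Slc12a1, the NKCC2 cotransporter that defines the thick ascending limb, stood at 252, 203, 376, 329 and 286 CPM in WT mice given PBS and at 339, 258, 301, 274 and 281 CPM in WT mice given rCD5L. Slc12a1 in CD5L KO mice stood at 189, 214, 209 and 274 CPM with PBS and at 173, 230.5, 181, 994 and 202 CPM with rCD5L. Kidney 4 of the last group was above all others, and the other 4 kidneys of that group were below every WT kidney given rCD5L. Umod was at 1369, 1436, 2830.3, 2022 and 2187 CPM in WT mice given PBS and 2705, 1999, 2079, 2554 and 1927 CPM with rCD5L. Umod in CD5L KO mice was at 1803, 1468, 2459.5 and 1695 CPM with PBS and 1643, 2127, 2961, 3754 and 1622 CPM with rCD5L. All 4 groups overlapped for Umod. Egf, a growth factor made in the distal tubule and lost from injured kidneys, was at 24, 32.9, 97, 83.3 and 72 CPM in WT mice given PBS and 59.4, 42.9, 32.9, 34.8 and 33.1 CPM with rCD5L. CD5L KO mice had 21.2, 37.2, 61.5 and 40.9 CPM of Egf with PBS and 26.6, 43.5, 37.3, 769 and 19.2 CPM with rCD5L. Kidney 4 of the last group held 769 CPM, and no other kidney exceeded 97 CPM. Casr, the calcium-sensing receptor of the basolateral membrane, was at 27.3, 26, 36.5, 36.8 and 34.3 CPM in WT mice given PBS and 34.3, 33.2, 36.1, 30.5 and 32.5 CPM with rCD5L. The CD5L KO kidneys had 27.1, 22.6, 21.7 and 27.7 CPM of Casr with PBS and 21.9, 29.2, 20.6, 30.9 and 24.8 CPM with rCD5L. Under rCD5L, kidney 4 was the 1 CD5L KO kidney within the WT range of Casr. Fxyd2 was at 612, 570.4, 929, 641 and 674 CPM in WT mice given PBS and 585, 610.5, 511, 446 and 517 CPM with rCD5L. Fxyd2 in CD5L KO mice was at 760.3, 801, 903 and 881 CPM with PBS and 721, 706, 1258, 2908 and 778 CPM with rCD5L. Every CD5L KO kidney was above every WT kidney under rCD5L, and under PBS above every WT kidney but kidney 3. Among the other genes of this segment, the potassium channel Kcnj1 (ROMK) ranged from 52.6 to 174 CPM over the 19 kidneys, the chloride channel subunit Bsnd (barttin) from 22.7 to 61.9 CPM, the prostaglandin receptor Ptger3 from 14.5 to 41.4 CPM and the membrane protein Tmem72 from 43.6 to 98.6 CPM. The highest value of each of the 4 was in kidney 4 of the rCD5L-treated CD5L KO mice.

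Slc12a3, the thiazide-sensitive NCC cotransporter that defines the distal convoluted tubule, was at 164, 201, 371, 275 and 327 CPM in WT mice given PBS and 366, 241, 318, 201 and 263 CPM with rCD5L. Slc12a3 in CD5L KO mice was at 274, 249, 272 and 228 CPM with PBS and 224, 339, 290.3, 674 and 298 CPM with rCD5L. The groups overlapped, and 674 CPM in kidney 4 was the highest value. Wnk4, a kinase upstream of NCC, was at 77.9, 88.8, 99.2, 93.3 and 84.2 CPM in WT mice given PBS and 85.6, 80.3, 97.2, 69 and 90.7 CPM with rCD5L. Wnk4 in CD5L KO mice was at 76.9, 69.5, 77.9 and 81.5 CPM with PBS and 84.6, 78.6, 116, 132 and 81.1 CPM with rCD5L. Kidneys 3 and 4 of the last group were the highest of all 19. Its relative Wnk1, picked after its values were seen because its groups did not overlap, was at 239.8, 253, 274, 251 and 273 CPM in WT mice given PBS and 274, 260.1, 274, 250.3 and 269 CPM with rCD5L. The CD5L KO kidneys had 223, 233, 221 and 235 CPM of Wnk1 with PBS and 231, 246, 183, 345 and 239 CPM with rCD5L. Every CD5L KO kidney given PBS was below every WT kidney given PBS, and the lowest and highest of all 19 were kidneys 3 and 4 of the rCD5L-treated CD5L KO mice. Trpm6, the apical magnesium channel, was at 25, 23.2, 25.4, 33.1 and 27.2 CPM in WT mice given PBS and 28.1, 23.3, 31.3, 24.7 and 26.7 CPM with rCD5L. Trpm6 in CD5L KO mice was at 26.6, 26.8, 25 and 25.5 CPM with PBS and 21, 25.9, 13.9, 12.7 and 22 CPM with rCD5L. Kidneys 3 and 4 of the last group were the lowest 2 of all. Kl, the FGF23 co-receptor klotho, was at 77.2, 101, 190.04, 104 and 123 CPM in WT mice given PBS and 116, 119, 93.4, 76.9 and 100.02 CPM with rCD5L. Kl in CD5L KO mice was at 92.6, 111, 112 and 120.2 CPM with PBS and 98, 123, 148, 721 and 117 CPM with rCD5L. The 721 CPM of kidney 4 compared with at most 190.0 CPM elsewhere.

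In the connecting tubule, calcium is taken up by a channel, carried by a binding protein and passed on by an exchanger. Trpv5, the apical calcium channel, was at 49.2, 55.6, 89.4, 52.7 and 65.3 CPM in WT mice given PBS and 60.5, 68.6, 65.2, 42.5 and 53.4 CPM with rCD5L. Trpv5 in CD5L KO mice was at 64.2, 64.7, 57.9 and 70.3 CPM with PBS and 59, 75.9, 40.6, 83.7 and 71.8 CPM with rCD5L. The groups overlapped, and the highest kidney was kidney 3 of the WT mice given PBS. Calb1, the calcium carrier calbindin, was at 12.6, 17.3, 37.7, 20.7 and 22.6 CPM in WT mice given PBS and 26.7, 17.5, 19.7, 14.2 and 19.9 CPM with rCD5L. The CD5L KO mice had 27.9, 24.3, 33.9 and 23 CPM of Calb1 with PBS and 26.5, 26.6, 37.8, 162 and 21.2 CPM with rCD5L. Kidney 4 held 162 CPM against at most 37.8 CPM in any other kidney. Slc8a1, the basolateral sodium-calcium exchanger, was at 21.8, 22.9, 26.6, 23 and 24.9 CPM in WT mice given PBS and 27.4, 27.3, 27.2, 23.3 and 28.5 CPM with rCD5L. Slc8a1 in CD5L KO mice was at 23.4, 20.4, 18.7 and 20.4 CPM with PBS and 21.3, 21.2, 17.3, 20.5 and 19.4 CPM with rCD5L. Every CD5L KO kidney was below every WT kidney under rCD5L, and under PBS the groups overlapped through 1 CD5L KO kidney at 23.4 CPM. Of the other genes of this segment, the potassium channel subunits Kcnj10 (Kir4.1) and Kcnj16 (Kir5.1) ranged from 16.4 to 58 CPM and from 177 to 845 CPM, the WNK-degrading adaptor Klhl3 from 17.6 to 38.8 CPM and the NCC-activating kinase Stk39 (SPAK) from 35.1 to 51.6 CPM. Pvalb, the calcium buffer parvalbumin of the early distal convoluted tubule and also of fast muscle, had 83 counts in kidney 3 and 36 counts in kidney 4 of the rCD5L-treated CD5L KO mice and at most 2 counts in any other kidney. It passed the filter on low counts in no comparison. Skeletal muscle markers summed to 52.3 CPM in kidney 3 and 3.29 CPM in kidney 4, and their part in the Pvalb counts was not tested.

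**Figure D2:**
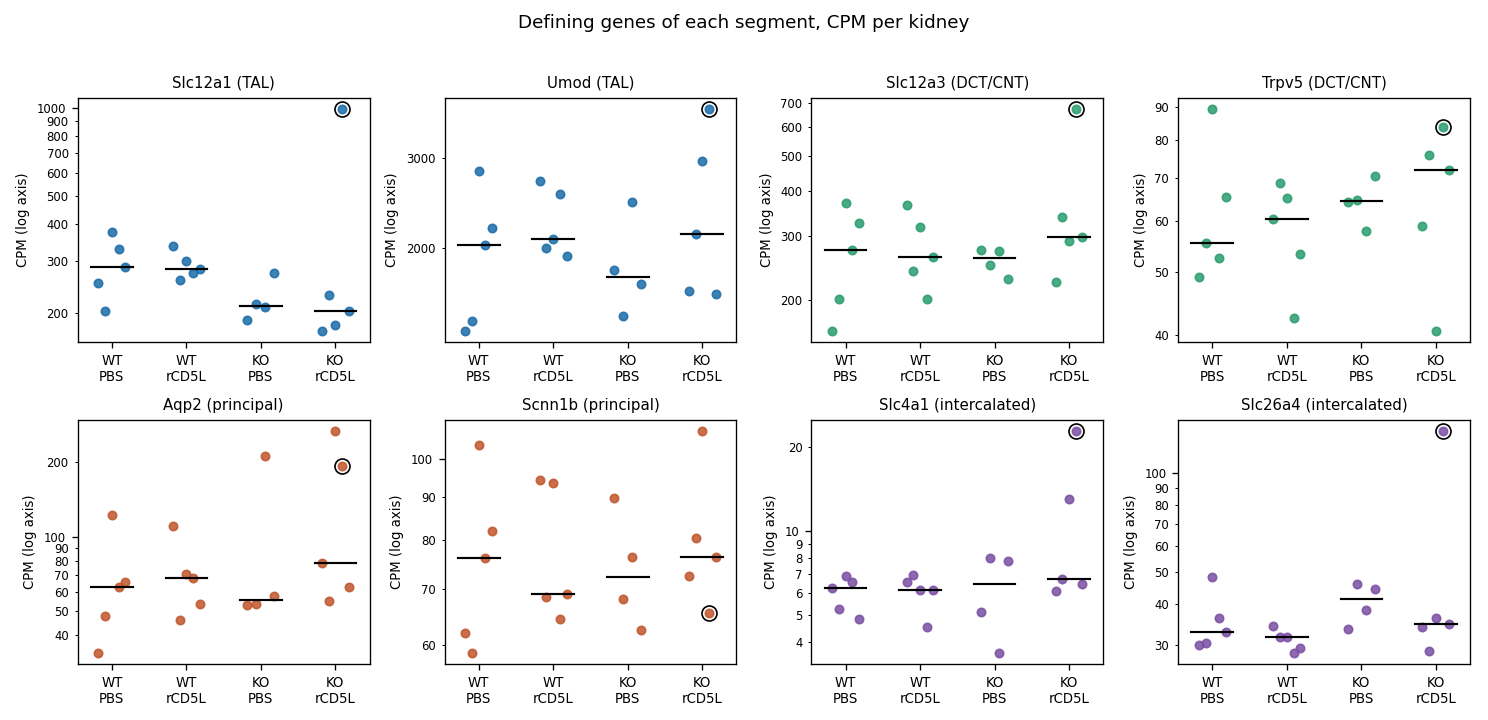
CPM on a log axis of the 8 defining genes (Slc12a1, Umod, Slc12a3, Trpv5, Aqp2, Scnn1b, Slc4a1 and Slc26a4) in each kidney (points) of the 4 groups, with a line at the group median. The circled point is kidney 4 of the rCD5L-treated CD5L KO mice, at 994 CPM for Slc12a1 and 134 CPM for Slc26a4, above all other kidneys for both.

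Aqp2, the vasopressin-regulated apical water channel that defines principal cells, was at 33.9, 47.8, 122, 62.9 and 65.9 CPM in WT mice given PBS and 110.1, 46.2, 70.6, 68.1 and 53.4 CPM with rCD5L. Aqp2 in CD5L KO mice was at 53.2, 53.4, 211 and 57.8 CPM with PBS and 78.4, 54.8, 266, 193 and 62.6 CPM with rCD5L. Kidney 3 of the PBS group and kidneys 3 and 4 of the rCD5L group were far above the other CD5L KO kidneys, all of which were between 53.2 and 78.4 CPM. Aqp4, a basolateral water channel, was at 3.23, 4.41, 5.34, 7.67 and 4.33 CPM in WT mice given PBS and 7, 4.81, 3.22, 4.95 and 3.61 CPM with rCD5L. The CD5L KO mice had 5.5, 4.93, 8.95 and 4.65 CPM of Aqp4 with PBS and 2.68, 5.41, 4.85, 38.4 and 4.85 CPM with rCD5L. Only kidney 4 of the last group was above 8.95 CPM. Avpr2, the vasopressin V2 receptor, was at 0.177, 0.416, 0.567, 0.751 and 0.598 CPM in WT mice given PBS and 0.509, 0.209, 0.129, 0.644 and 0.437 CPM with rCD5L. Avpr2 in CD5L KO mice was at 0.18, 0.519, 0.303 and 0.31 CPM with PBS and 0.134, 0.215, 0.144, 0.306 and 0.481 CPM with rCD5L. These levels rest on 3 to 14 counts a kidney, the groups overlapped, and Avpr2 passed the filter in the comparison of genotypes given PBS, in that of treatments in WT mice and in the fit over all kidneys.

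Scnn1b, a subunit of the sodium channel ENaC, was at 62, 58.7, 104, 76.3 and 82.1 CPM in WT mice given PBS and 94.4, 68.5, 93.7, 64.5 and 69 CPM with rCD5L. Scnn1b in CD5L KO mice was at 89.8, 68.2, 76.4 and 62.6 CPM with PBS and 72.5, 80.6, 108, 65.6 and 76.4 CPM with rCD5L. All groups overlapped, and kidney 4 was not among the high values. Hsd11b2 was at 129, 118, 206, 130.02 and 145 CPM in WT mice given PBS and 212, 163, 189, 156 and 185 CPM with rCD5L. Hsd11b2 in CD5L KO mice was at 186, 166, 164 and 182 CPM with PBS and 219, 179.6, 295, 119.9 and 178 CPM with rCD5L. Under PBS, each CD5L KO kidney was above every WT kidney but kidney 3. Fxyd4, a regulator of the Na,K-ATPase in the collecting duct, was at 28, 22.5, 28.8, 28.3 and 24.2 CPM in WT mice given PBS and 29.1, 26.2, 27.1, 21.8 and 24 CPM with rCD5L. The CD5L KO mice had 30.3, 33.6, 25.7 and 32.3 CPM of Fxyd4 with PBS and 27.5, 24, 20.6, 29.4 and 30.4 CPM with rCD5L. The groups overlapped. Gata3, a transcription factor of the collecting duct lineage that T cells also use, was at 16.2, 18.4, 23.7, 20.1 and 24.4 CPM in WT mice given PBS and 27.7, 24.3, 25.6, 22.4 and 23.5 CPM with rCD5L. Gata3 in CD5L KO mice was at 26.2, 24.3, 27.2 and 28.2 CPM with PBS and 27.5, 25, 28, 16.2 and 26.5 CPM with rCD5L. Kidney 4 was the lowest of the last group, and it also had the lowest sum of T cell markers, whose part in the Gata3 level was not tested. Of the remaining principal cell genes, Scnn1a and Scnn1g, the other ENaC subunits, ranged from 59.4 to 131 CPM and from 32 to 65.8 CPM, the water channel Aqp3 from 30.0 to 124 CPM, Nr3c2 from 14.2 to 20.6 CPM and the transcription factor Elf5 from 0.531 to 2.53 CPM.

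Atp6v1g3 (ENSMUSG00000026394, chr1:138273738-138289462 of GRCm38, plus strand) encodes the G3 subunit of the V-ATPase, the proton pump of intercalated cells. No annotated gene overlaps it, whereas Slc12a1, Umod, Egf, Casr, Trpm6, Slc8a1, Wnk1, Wnk4, Klhl3, Scnn1b, Avpr2, Nr3c2, Fxyd4, Gata3 and Atp6v0a4 each overlap another gene model whose reads could not be separated here. It was at 45.7, 40.4, 50.1, 46.3 and 44.3 CPM in WT mice given PBS and 42.8, 42.9, 46.9, 34.6 and 40.6 CPM with rCD5L. Atp6v1g3 in CD5L KO mice was at 57.3, 64.6, 46.5 and 60.3 CPM with PBS and 49.9, 43.6, 43.5, 69.1 and 53.8 CPM with rCD5L. Under PBS, 3 of the 4 CD5L KO kidneys were above every WT kidney, and the fourth, at 46.5 CPM, was within the WT range. Atp6v0d2, another subunit of the pump, was at 39.97, 44.7, 62.6, 46.6 and 48.4 CPM in WT mice given PBS and 52.7, 41.2, 56.9, 46.9 and 47.1 CPM with rCD5L. The CD5L KO mice had 66.6, 53.6, 63.3 and 56.6 CPM of Atp6v0d2 with PBS and 61, 46.9, 48.2, 55.8 and 50.5 CPM with rCD5L. With PBS, every CD5L KO kidney was above kidneys 1, 2, 4 and 5 of the WT mice. Slc4a1, the chloride-bicarbonate exchanger AE1 of acid-secreting cells and of red cells, was at 6.23, 5.24, 6.9, 6.55 and 4.83 CPM in WT mice given PBS and 6.58, 6.96, 6.14, 4.51 and 6.15 CPM with rCD5L. Slc4a1 in CD5L KO mice was at 5.14, 8, 3.64 and 7.8 CPM with PBS and 6.08, 6.74, 13, 22.9 and 6.43 CPM with rCD5L. Kidneys 3 and 4 of the last group were the highest 2 of all. Their 6 erythroid markers summed to 244.1 and 153.3 CPM, within the 38.0 to 495 CPM of the 19 kidneys. The part of red cells in the Slc4a1 level was not tested.

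Slc26a4, the chloride-bicarbonate exchanger pendrin of base-secreting cells, was at 29.9, 30.4, 48.3, 36.2 and 32.8 CPM in WT mice given PBS and 34.3, 31.8, 31.8, 28.3 and 29.4 CPM with rCD5L. Slc26a4 in CD5L KO mice was at 33.5, 45.9, 38.4 and 44.3 CPM with PBS and 34, 28.8, 36.3, 134 and 34.7 CPM with rCD5L. Kidney 4 was at 134 CPM and no other kidney was above 48.3 CPM. Slc4a9, the exchanger AE4 on the basolateral side of the same cells, was at 69, 64.6, 81.2, 71 and 70.5 CPM in WT mice given PBS and 66.7, 64.1, 76.4, 49.2 and 66.4 CPM with rCD5L. The CD5L KO mice had 64.1, 63.3, 53.7 and 62.5 CPM of Slc4a9 with PBS and 47.9, 56.2, 45.8, 88.7 and 62.1 CPM with rCD5L. Every CD5L KO kidney given PBS was below every WT kidney given PBS, by as little as 64.1 against 64.6 CPM. Foxi1 was at 31, 36.1, 46.6, 49.2 and 41.7 CPM in WT mice given PBS and 44.7, 45.3, 58.5, 37.5 and 42.6 CPM with rCD5L. Foxi1 in CD5L KO mice was at 34.4, 35.5, 35.6 and 43.5 CPM with PBS and 50.6, 33.4, 48.7, 37.1 and 47 CPM with rCD5L. All groups overlapped for Foxi1. The pump subunits Atp6v1b1 and Atp6v0a4 ranged from 77.2 to 129 CPM and from 108 to 325 CPM over the 19 kidneys.

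The first comparison asked how obstructed kidneys without CD5L differ from WT kidneys when no protein is given. Of the 41 genes tested, 1 rose and 0 fell in CD5L KO mice, against 10.5% of all 17579 genes called (5.13% higher and 5.4% lower). The gene was Atp6v1g3, at 57.2 ± 7.73 CPM (SD, n = 4) in CD5L KO and 45.4 ± 3.51 CPM (SD, n = 5) in WT mice, a log2 fold change of 0.33 (SE 0.09, 95% interval 0.13 to 0.53, adjusted p = 0.0387). DESeq2 called 6 of the 41 and 2622 of 17579 genes. Atp6v1g3 and Gata3 were higher and Casr, Wnk1, Wnk4 and Slc4a9 lower in CD5L KO mice by that test. The median log2 fold change was 0.03 over the thick ascending limb genes, -0.03 over those of the distal convoluted and connecting tubule, 0.17 over principal cell genes and 0.10 over intercalated cell genes, with 0.03 over all 41 and -0.0046 over all genes tested. Groups did not overlap for Wnk1 and Slc4a9, both lower in CD5L KO mice, which is 2 of 41 genes against 14.1% of all genes (7.35% higher and 6.74% lower). The log2 fold change was positive for 24 of the 41 genes, against 49.3% of all genes.

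No gene of the thick ascending limb passed the edgeR test, and the point estimates lay on both sides of 0. Slc12a1 had a log2 fold change of -0.39 (SE 0.16, adjusted p = 0.134), Casr one of -0.38 (SE 0.12, adjusted p = 0.0655) and Fxyd2 one of 0.28 (SE 0.12, adjusted p = 0.163). Casr was called lower with DESeq2 (adjusted p = 0.0251), with edgeR and no filter on low counts (adjusted p = 0.0446), and without kidney 1 or kidney 2 of the WT mice (adjusted p = 0.0439 and 0.0420). Fxyd2 was called higher with the replicate number as a block (adjusted p = 0.0448). The largest point estimate belonged to Egf, at -0.63 with a 95% interval from -1.47 to 0.21. Umod differed by -0.09 (95% interval -0.53 to 0.35). In the distal convoluted tubule, the WNK kinases had log2 fold changes of -0.18 (SE 0.06, adjusted p = 0.0551) for Wnk1 and -0.22 (SE 0.07, adjusted p = 0.0735) for Wnk4, and the cotransporter downstream, Slc12a3, differed by -0.07 (95% interval -0.49 to 0.35). The kinase Stk39 between them differed by 0.04 and the adaptor Klhl3 by 0.03. The smallest adjusted p of any gene of the distal convoluted and connecting tubule fell under 0.05 in some alternatives. It was 0.0134 with DESeq2, 0.0475 with at least 10 counts in every sample and 0.0468, for Wnk4, with the replicate number as a block. Without kidney 1 or kidney 3 of the WT mice it was 0.033 and 0.0452. Among calcium genes, Slc8a1 differed by -0.21 (SE 0.08, adjusted p = 0.135), Trpv5 by 0.03 and Calb1 by 0.29 (SE 0.24).

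In principal cells, the ENaC subunits Scnn1a, Scnn1b and Scnn1g had log2 fold changes of -0.05, -0.05 and 0.01. Gata3 had one of 0.36 (SE 0.11, adjusted p = 0.0644), Hsd11b2 one of 0.25 (SE 0.13, adjusted p = 0.250) and Fxyd4 one of 0.20 (SE 0.10, adjusted p = 0.203). Gata3 was called with DESeq2 (adjusted p = 0.0248) and with the replicate number as a block (adjusted p = 0.0156). The smallest edgeR adjusted p of any principal cell gene was 0.0482 with no filter on low counts and 0.0441 without kidney 3 of the CD5L KO mice. Without kidney 5 or kidney 3 of the WT mice it was 0.0388 and 0.00663. T cell markers, whose cells also use Gata3, summed to 30.5 to 54.5 CPM in CD5L KO and 30.7 to 65.0 CPM in WT kidneys given PBS. Their part in the Gata3 difference was not tested. Aqp2 differed by 0.48 (95% interval -0.47 to 1.44), a value set by 1 kidney, since without kidney 3 of the CD5L KO mice it was -0.28. In intercalated cells, Atp6v0d2 had a log2 fold change of 0.30 (SE 0.11, adjusted p = 0.108), Atp6v0a4 one of 0.16, Atp6v1b1 one of -0.05 and Slc4a9 one of -0.23 (SE 0.07, adjusted p = 0.0659). The point estimates of the 4 pump subunits ranged from -0.05 to 0.33. Slc26a4, from the same cells as Slc4a9, had a value of 0.18 (SE 0.14).

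**Figure D3:**
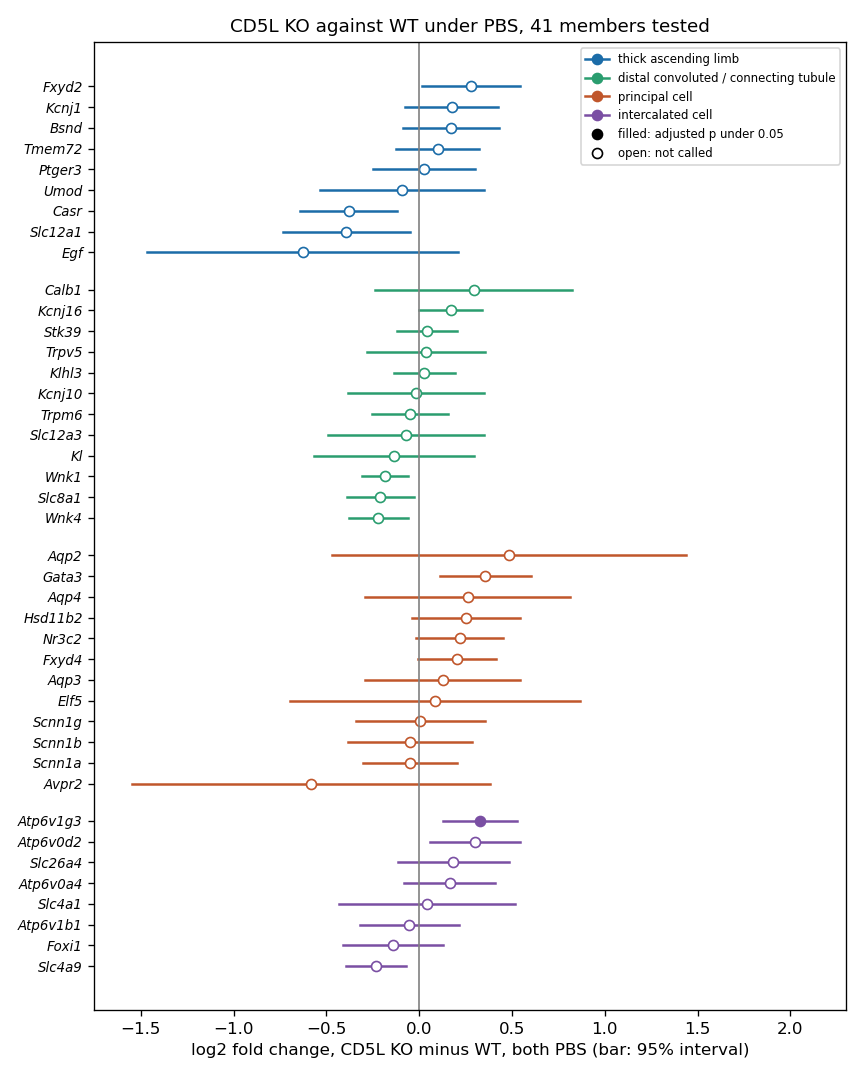
Log2 fold change of CD5L KO against WT mice, both given PBS, for the 41 genes tested (points, by segment) with 95% intervals (lines), where a filled point is a called gene. Atp6v1g3 at 0.33 is the 1 filled point, and the intervals of Slc12a1, Casr, Slc8a1, Wnk1, Wnk4 and Slc4a9 lie below 0, while those of the uncalled Fxyd2, Gata3 and Atp6v0d2 lie above 0.

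Of 62 other genes of the same segments, 3 rose and 4 fell (11.3%, against 10.5% of all genes), a share close to the background. Among the called genes, the largest change was a rise of Klk1, the kallikrein of the connecting tubule, by 0.73 (SE 0.19, adjusted p = 0.0313). Next among them came a fall of the calcium pump Atp2b4 by 0.42 (SE 0.07, adjusted p = 0.00596). The ENaC-degrading ligase Nedd4l followed with a fall by 0.37 (SE 0.06, adjusted p = 0.00672). Markers of other cells differed between these groups as well. Of 6 fibroblast and myofibroblast markers 3 fell, with sums of 2156 to 2983 CPM in CD5L KO and 3030 to 4797 CPM in WT kidneys. Of 5 endothelial markers 3 fell (512.5 to 563.6 against 608.4 to 674.1 CPM), and of 6 markers of injured tubule 1 rose (23150 to 28270 against 14570 to 20840 CPM). Of 5 podocyte markers 1 fell (Wt1), of 6 macrophage markers 1 fell (Csf1r), and of 6 urothelial markers 0 were called, although all 6 had positive log2 fold changes (median 0.77) and sums of 185.4 to 312.8 against 25.1 to 181.9 CPM. No marker of these 6 lists was at 0 in any kidney of these groups. The part of these lists in the values of the distal genes was not tested.

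The call of Atp6v1g3 was lost in 12 alternative fits, with log2 fold changes of 0.25 to 0.33, and was kept in fewer. With FPKM values in limma its adjusted p was 0.0731 or 0.0716, with an offset for gene length 0.117, with the replicate number as a block 0.0819, with all 19 kidneys in 1 fit 0.302, and when any 1 of the 7 kidneys other than kidney 3 of each group was left out 0.0580 to 0.117. Without kidney 3 of the WT mice, 8 genes were called and all were higher in CD5L KO mice, while 2062 of 17492 genes were called. They were Hsd11b2 (log2 fold change 0.41, adjusted p = 0.00663), Fxyd2 (0.41, adjusted p = 0.00676), Atp6v0d2 (0.41, adjusted p = 0.0103), Atp6v1g3 (0.36, adjusted p = 0.0279), Gata3 (0.41, adjusted p = 0.0363), Kcnj1 (0.29, adjusted p = 0.0364), Kcnj16 (0.23, adjusted p = 0.0452) and Calb1 (0.57, adjusted p = 0.0474). In that fit 31 of 40 genes had a positive log2 fold change, including all 11 principal cell genes tested, and the median was 0.15. Other kidneys moved these values the other way. Without kidney 2 of the WT mice, 19 of 41 genes were positive with a median of -0.0035, and without kidney 3 of the CD5L KO mice the median of the principal cell genes went from 0.17 to 0.0032 (7 of 12 positive) and that of the thick ascending limb genes to -0.08.

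**Figure D4:**
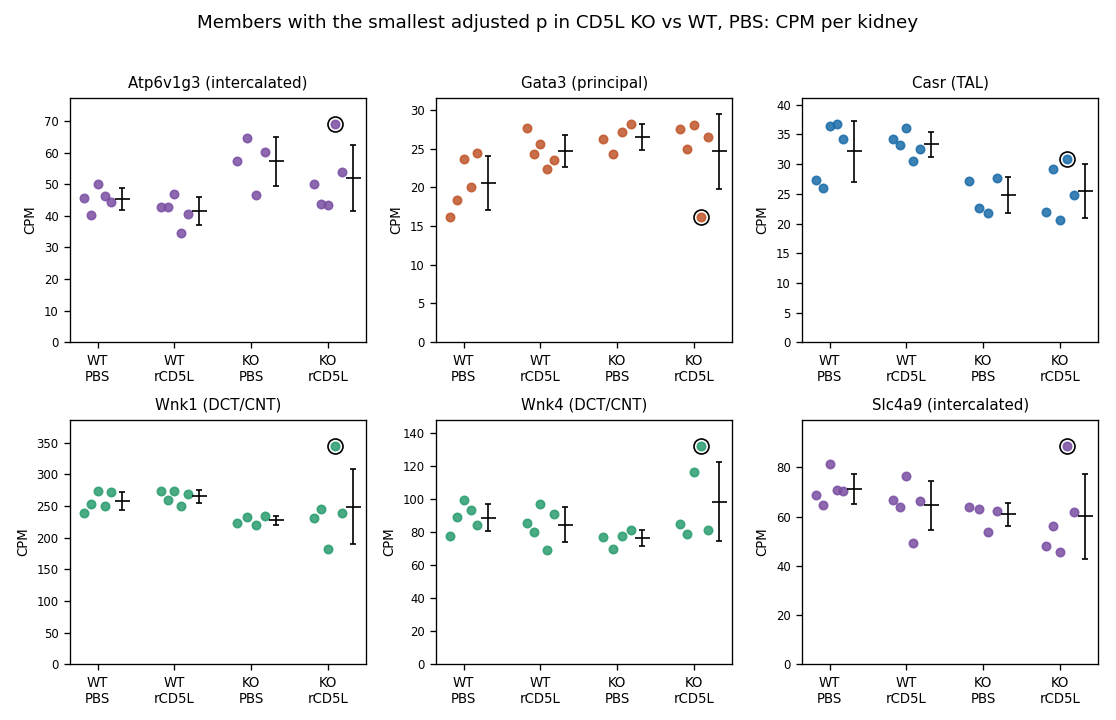
CPM of Atp6v1g3, Gata3, Casr, Wnk1, Wnk4 and Slc4a9 in each kidney (points) of the 4 groups, on an axis from 0, with a dash at the mean and a bar of 1 SD to each side. Wnk1 and Slc4a9 do not overlap between the 2 groups given PBS, and the circled point is kidney 4 of the rCD5L-treated CD5L KO mice.

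The second comparison asked what rCD5L changed in mice that make no CD5L. It shares the CD5L KO kidneys given PBS with the first. Of the 40 genes tested 0 were called, against 0% of 17467 genes with edgeR, and 0 of the 40 had an unadjusted p under 0.05, against 2.87% of all genes (502). The 2 groups overlapped for all 40, where 2.35% of all genes did not. DESeq2 called 10 genes, of which 0 were among the 40. The log2 fold change was positive for 30 of the 40, against 53.5% of all genes, with a median of 0.17 against 0.02. All 9 genes of the thick ascending limb were on that side, with a median of 0.33. Egf had the largest value at 2.14 (SE 1.10, 95% interval -0.30 to 4.57, adjusted p = 0.897), followed by Kl at 1.13 (SE 0.57), Calb1 at 0.99 (SE 0.57), Aqp4 at 0.87 (SE 0.72) and Slc4a1 at 0.82 (SE 0.43). The lowest value was that of Trpm6 at -0.45 (SE 0.21).

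These values rested on kidney 4, the one with 52830 CPM of proximal tubule markers. Without it, 17 of the 40 genes were positive, the median was -0.04, and 3 of the 9 thick ascending limb genes were positive. Egf turned to -0.35 (SE 0.31), Slc12a1 from 0.67 to -0.17, Aqp4 to -0.43 and Slc26a4 from 0.38 to -0.28, while Kl went to 0.15, Calb1 to 0.04 and Slc4a1 to 0.38. Trpm6 stayed negative at -0.33 (SE 0.17). Without kidneys 3 and 4, an alternative chosen after seeing the data, 16 of 40 were positive and the median was -0.02. The 62 other distal genes had 47 positive values and a median of 0.15 with all kidneys. Of the markers of other cells 0 were called. All 10 proximal tubule markers had positive log2 fold changes (median 1.29), with sums of 4039 to 52830 CPM with rCD5L and 3667 to 8048 CPM with PBS. The 2 skeletal muscle markers tested were positive too (median 2.0, sums of 1.65 to 52.3 against 1.80 to 2.16 CPM). All 6 urothelial markers (median -0.50, sums of 107.6 to 218 against 185.4 to 312.8 CPM), all 6 markers of injured tubule (median -0.29, 10070 to 25690 against 23150 to 28270 CPM) and all 5 erythroid markers tested (median -0.54, 86.5 to 344.7 against 202.4 to 407.2 CPM) had negative values. The part of these lists, and of the proximal tubule RNA of kidney 4, in these differences was not tested.

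**Figure D5:**
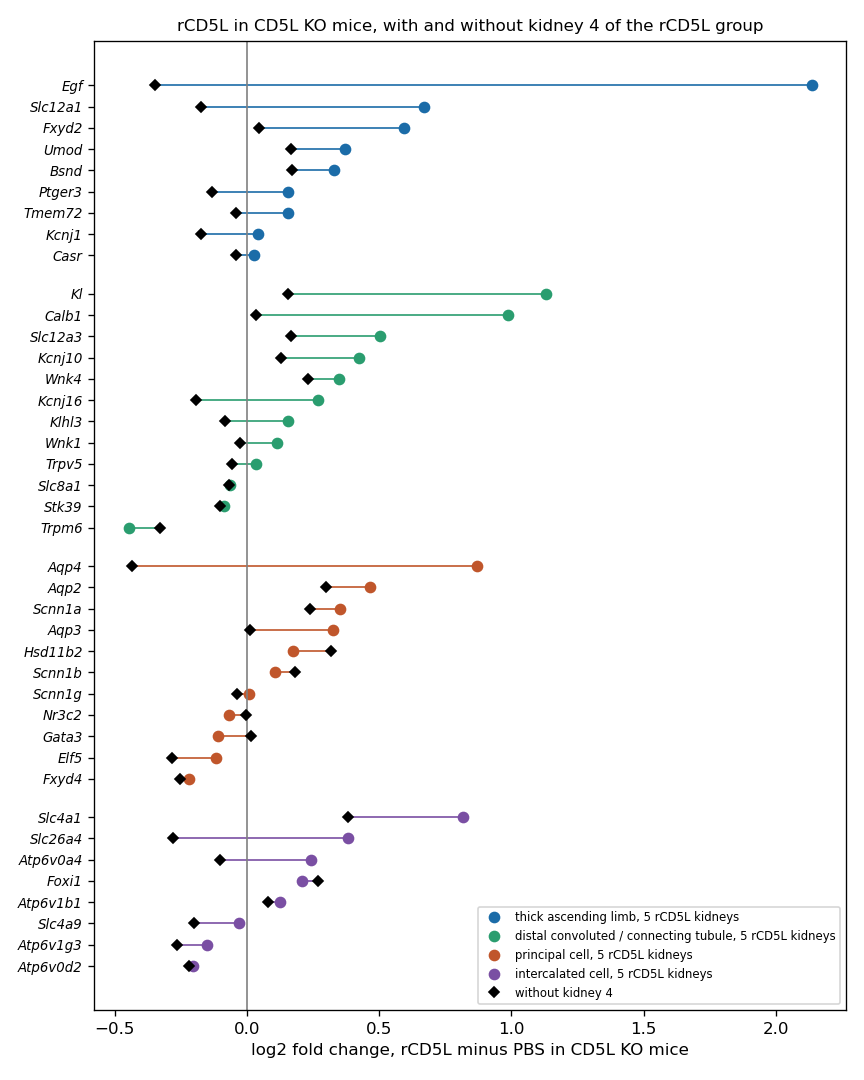
Log2 fold change with rCD5L relative to PBS for 40 genes in mice without CD5L, with all 5 rCD5L kidneys and without kidney 4 (diamonds). Egf moves from 2.14 to -0.35 and Kl from 1.13 to 0.15, and the median of the 40 genes moves from 0.17 to -0.04.

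The third comparison asked the same of WT mice. It shares the WT kidneys given PBS with the first. Of the 41 genes tested 0 were called, against 0% of 17455 genes with edgeR, and DESeq2 called 542 genes, 0 of them among the 41. An unadjusted p under 0.05 was found for 5 of the 41, against 16% of all genes. Fxyd2 was lower with rCD5L by point estimate, at 534 ± 65.1 CPM (SD, n = 5) against 685 ± 142 CPM (SD, n = 5), a log2 fold change of -0.35 (SE 0.12, adjusted p = 0.172). Hsd11b2 differed by 0.32 (SE 0.13, adjusted p = 0.248), Gata3 by 0.28 (SE 0.11, adjusted p = 0.226), Slc8a1 by 0.18 (SE 0.07, adjusted p = 0.258) and the kinase Stk39 by 0.15 (SE 0.06, adjusted p = 0.248). Of the markers of other cells 0 were called between these groups, and several lists had all their values on one side of 0. All 6 T cell markers had positive log2 fold changes with rCD5L (median 0.50, sums of 42.9 to 77.7 against 30.7 to 65.0 CPM), which stands beside Gata3. All 10 proximal tubule markers had negative ones (median -0.38, 5 at an unadjusted p under 0.05, sums of 3163 to 5072 against 3881 to 7999 CPM), which stands beside Fxyd2. The 5 erythroid markers tested were all negative (median -0.65, sums of 38.0 to 355 against 219.1 to 495.1 CPM), and so were all 6 urothelial markers (median -0.22, sums of 54.1 to 203.9 against 25.1 to 181.9 CPM). Their part in these values was not tested. The defining genes Slc12a1 (0.02, 95% interval -0.27 to 0.30), Slc12a3 (0.06, -0.37 to 0.50), Aqp2 (0.08, -0.54 to 0.70) and Slc26a4 (-0.18, -0.43 to 0.07) had intervals on both sides of 0. The 2 groups overlapped for all 41 genes, where 3.6% of all genes did not overlap. The log2 fold change was positive for 23 of the 41, against 51.3% of all genes, with a median of 0.02, and this balance moved in both directions with single kidneys. Among the mice given PBS, it was 30 of 41 (median 0.10) without kidney 3, 14 of 41 (median -0.04) without kidney 1 and 12 of 41 (median -0.04) without kidney 2. Among those given rCD5L, it was 16 of 41 (median -0.04) without kidney 1. Without kidney 3 of the PBS group Hsd11b2 reached 0.48 (adjusted p = 0.0979) and 0 genes of the 41 were called. Of the 62 other distal genes 0 were called.

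The fourth comparison set CD5L KO against WT mice that were both given rCD5L, and it shares its kidneys with the second and the third. Of the 40 genes tested 0 were called, against 0% of 17360 genes with edgeR, with 9 of the 40 and 17.8% of all genes at an unadjusted p under 0.05, and DESeq2 called 150 genes, of which 1, Slc8a1, was among the 40. Fxyd2 was higher and Slc8a1 lower in every CD5L KO kidney than in every WT kidney, which is 2 of 40 genes against 7.51% of all genes (4.63% higher and 2.89% lower). The log2 fold change was positive for 32 of the 40, against 48.9% of all genes, with a median of 0.16. Without kidney 4, it was positive for 24 of 41 with a median of 0.05, and for the thick ascending limb the count went from 8 of 9 (median 0.27) to 3 of 9 (median -0.13). Fxyd2 was at 1274 ± 942 CPM (SD, n = 5) in CD5L KO and 534 ± 65.1 CPM (SD, n = 5) in WT mice, a log2 fold change of 1.23 (SE 0.37, adjusted p = 0.260). Slc8a1 had a log2 fold change of -0.44 (SE 0.11, 95% interval -0.67 to -0.21, adjusted p = 0.260) and Casr one of -0.41 (SE 0.13, adjusted p = 0.260). Of the markers of other cells 0 were called. All 10 proximal tubule markers had positive log2 fold changes (median 1.59, 8 at an unadjusted p under 0.05), with sums of 4039 to 52830 CPM in CD5L KO and 3163 to 5072 CPM in WT kidneys. All 6 fibroblast and myofibroblast markers had negative ones (median -0.40, sums of 1099 to 4259 against 3150 to 4432 CPM), as had all 5 podocyte markers (median -0.38, 4 at an unadjusted p under 0.05, sums of 397 to 627.8 against 601.9 to 699.8 CPM), and all 6 urothelial markers were positive (median 0.46, sums of 107.6 to 218 against 54.1 to 203.9 CPM). All 6 T cell markers (median -0.35, sums of 14.6 to 56.2 against 42.9 to 77.7 CPM) and all 6 macrophage markers (median -0.17, sums of 669.9 to 2444 against 2040 to 2421 CPM) were negative as well. The 2 of 5 skeletal muscle markers that were tested were positive (median 1.79, both at an unadjusted p under 0.05, sums of 1.65 to 52.3 against 1.78 to 2.13 CPM). The part of these lists in the values of Fxyd2, Slc8a1 and the other distal genes was not tested. Egf (2.12), Calb1 (1.45), Kl (1.23) and Aqp4 (1.21) had the largest other values and Trpm6 (-0.51) the lowest. Kidney 4 entered all of these. Without it, the values were 0.67 for Fxyd2, -0.45 for Slc8a1, -0.49 for Casr, -0.38 for Egf, 0.49 for Calb1 and 0.24 for Kl, and Slc12a1 went from 0.27 to -0.59 (SE 0.12, adjusted p = 0.105). Without kidneys 3 and 4, which was chosen after seeing the data and leaves 3 kidneys, 644 of 18012 genes were called, among them Slc12a1 (-0.54, adjusted p = 0.0228), Fxyd2 (0.45, adjusted p = 0.0234), Slc8a1 (-0.39, adjusted p = 0.0326) and Casr (-0.41, adjusted p = 0.0416).

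The genotype differences with PBS and with rCD5L use no kidney in common and can be set side by side. The log2 fold change had the same direction in both for 28 of 40 genes (70%), against 67.6% of all genes, so the share was close to the background. Casr, Fxyd2 and Slc8a1 had an unadjusted p under 0.05 and the same direction in both (7.5% of the 40 genes against 8.4% of all). Casr was at -0.38 with PBS and -0.41 with rCD5L, Slc8a1 at -0.21 and -0.44, and Fxyd2 at 0.28 and 1.23. Without kidney 4, 27 of 41 genes had the same direction (65.9% against 66.9% of all genes), and 6 genes passed the unadjusted threshold in both (14.6% against 8.68%). These were Casr, Fxyd2, Slc12a1, Slc4a9, Slc8a1 and Wnk1. Without kidneys 3 and 4, 29 of 41 had the same direction (70.7% against 71.8%) and 6 again passed in both (14.6% against 12.3%), with Atp6v1g3 in place of Slc4a9.

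Whether rCD5L acted differently in CD5L KO and WT mice was tested over all 19 kidneys. Of 41 genes 0 were called, against 0% of 18454 genes with edgeR and 0 genes with DESeq2, and 6.25% of all genes had an unadjusted p under 0.05. Among the 41, Egf (difference of the 2 log2 fold changes 2.76, SE 1.16, adjusted p = 0.731), Kl (1.38, SE 0.62), Fxyd2 (0.97, SE 0.43) and Wnk4 (0.43, SE 0.19) were at that threshold. Without kidney 4 they stood at 0.25, 0.38, 0.39 and 0.29, and 0 genes of the 41 were called. No difference between the genotypes in the response of distal genes to rCD5L was detectable with these kidneys.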

How the data were processed

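Raw gene-level counts were deposited. The authors trimmed the read pairs with Trimmomatic, mapped them to GRCm38 (mm10) with HISAT2 and assigned them to genes with featureCounts, from libraries primed with random hexamers. They also deposited FPKM values of the same 54532 genes. Versions, strand setting and the treatment of reads with several matches are not given in the sources used here, so reads of a gene and of an antisense or overlapping gene cannot be told apart. Groups came from the sample labels.

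The main test was the quasi-likelihood test of edgeR 4.0.16 in R 4.3.3 on all genes that passed filterByExpr (minimum count 10), with TMM scaling, with the 2 groups compared in a fit and all 4 in the interaction, and Benjamini-Hochberg adjustment over those genes. The test was run on simulated counts with 200 changed genes. Those changes were larger than most seen here and no simulated kidney lay far from its group, so the run does not cover these cases. DESeq2 1.42.0, limma 3.58.1 on log2(FPKM + 1) and log2(FPKM + 0.1), RLE factors, other filters, an offset for gene length (lowess span 0.3), the replicate number as a block and leaving out each kidney were alternatives. Values in every kidney are given for called genes, the 8 defining genes, and the genes with the highest and lowest log2 fold change in each segment and comparison. The 42 genes, the other distal genes and the marker lists were chosen with earlier results of these data known. Limits that a count of 0 allows cover counting error only, since reads carried no molecular identifiers. The p-values set a difference between groups against the spread between these kidneys.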

Additional observations from a re-analysis of the deposited data

Results flagged for a closer look

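Within a group, the gap between the highest or lowest kidney and its nearest neighbour was set against the range of the group, and a share above the 95% critical value of Dixon for that number of kidneys marked a kidney far from the others. Of 100 pairs of a gene and a group, 14 passed. Chance marks about 1 in 20 groups, but most of the 25 genes were picked for the highest or lowest fold change of a segment, so the 14 cannot be set against that share. Kidney 4 of the rCD5L-treated CD5L KO mice accounted for 9 of them. It was the highest for Egf (0.968 of the range), Slc12a1 (0.930), Slc26a4 (0.929), Aqp4 (0.924), Kl (0.920), Calb1 (0.882), Fxyd2 (0.749) and Slc12a3 (0.745), and the lowest for Gata3 (0.744). These genes come from all 4 segments.

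In CD5L KO mice given PBS, kidney 3 was the highest for Aqp2 (0.971, 211 CPM) and the lowest for Slc4a9 (0.846, 53.7 CPM), and kidney 4 was the highest for Foxi1 (0.868, 43.5 CPM). In WT mice given PBS, kidney 3 was the highest for Fxyd2 (0.7103, 929 CPM). In WT mice given rCD5L, kidney 4 was the lowest for Slc8a1 (0.758, 23.3 CPM).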

How the results depend on the processing

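For CD5L KO against WT mice given PBS, 1 of the distal genes was called (1850 of all 17579 genes), and the number was 6 with DESeq2 (2622 of all genes), 3 without a filter on low counts (1588 of 31595), 2 with at least 10 counts in every sample (1964 of 15817), and 0 with all 19 kidneys in 1 fit (12 of 18454), with log2(FPKM + 1) (1559), with log2(FPKM + 0.1) (1558) and with the gene length offset (1209 of all genes). Leaving out 1 kidney gave 0 to 8 (1015 to 2062 of all genes). For CD5L KO against WT mice given rCD5L, where 0 were called, DESeq2 called 1 (150 of all genes), all 19 kidneys in 1 fit 2, Fxyd2 and Slc8a1 (1291 of all genes), and leaving out kidneys 3 and 4 of the CD5L KO mice 4 (644 of all genes), with Slc12a1 turned to -0.54. Leaving out 1 kidney gave 0 to 0. In the other comparisons 0 distal genes were called under every alternative run, where DESeq2 called 10 of all genes for rCD5L without CD5L and 542 for WT mice. For rCD5L in WT mice, 137 of 31830 genes were called without a filter on low counts. Without kidney 1 of the WT mice given PBS, 39 of 17607 were. The cause of these shifts was not tested.

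With the replicate number as a block, 3 of 41 distal genes (Fxyd2, Gata3 and Wnk4) and 2132 of 17579 genes were called in CD5L KO against WT mice given PBS. The correlation of the deviations of same-numbered kidneys was -0.0390 to 0.208 there, 0.0258 to 0.249 for rCD5L in CD5L KO mice, -0.0521 to -0.000544 for rCD5L in WT mice and -0.198 to -0.00272 for the genotypes given rCD5L, so the numbers were not taken to pair the mice.

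The named genes had 446 values under the alternatives for the genotypes given PBS, of which 18 gained a call. Only Atp6v1g3, the 1 gene called in the main fit, could lose one, and all 12 losses were its own. For the genotypes given rCD5L, 6 of 480 values gained a call in the same direction and 1, Slc12a1, gained one with its sign turned. Depth limits Avpr2, Elf5 and Pvalb, and groups of 4 or 5 kidneys with 1 far from the rest limit every comparison with rCD5L in CD5L KO mice.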
